A study of Mus musculus with 10 samples.

Results

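The Six3 Sp9 Tshz1 inhibitory neurons were 3622 cells of 65779 that passed the cell filters, or 5.51%, in single-cell RNA-seq libraries of mouse cortex from E16.5 embryos. A cell passed the filters with at least 1000 unique molecular identifiers (UMIs, each standing for 1 captured RNA molecule) and at most 10% of them from mitochondrial genes, which left 65779 of 80071 barcodes. Member cells were chosen by the detection of at least 3 of 5 transcription factor and synaptic genes, Six3, Sp9, Pbx3, Tshz1 and Syt6. They also had no UMI of Isl1, Ebf1 or Lhx6, at most 2 UMIs of Neurod6, and fewer than 2 of the mitosis genes Mki67, Top2a, Cdk1, Birc5 and Ube2c detected. These genes chose the cells, so their values are given only as a description and were left out of every count of changed genes.

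The libraries came from 3 wild-type embryos (WT), 4 embryos with 1 copy of a gene-trap allele of Gatad2b (Gatad2b stop/+, Het) and 3 embryos with 2 copies (Gatad2b stop/stop, KO), each embryo in a library of its own. Gatad2b encodes a subunit of the nucleosome remodelling and deacetylase (NuRD) complex, and loss of 1 copy of its human counterpart causes a neurodevelopmental disorder. The allele, tm1a(EUCOMM)Hmgu on a C57BL/6N-A tm1Brd background, carries its trap cassette in an intron between the first and second coding exons in every cell of the embryo. The later exons remain, so UMIs from the 3' end of the transcript need not disappear, and the WT embryos carried no trap allele. The question was how these neurons differed among the 3 genotypes.

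Neurons that use GABA arise in the ganglionic eminences below the cortex. The lateral ganglionic eminence (LGE) makes the projection neurons of the striatum and, from its dorsal part, interneurons of the olfactory bulb and the intercalated cells of the amygdala, while the medial (MGE) and caudal (CGE) eminences make most cortical interneurons. Six3 and Sp9 are required for striatal neurons of the indirect pathway, which carry the dopamine receptor Drd2. Isl1 and Ebf1 mark striatal neurons of the direct pathway, which carry Drd1, and Tshz1 and Sp8 act in neurons of the dorsal LGE.

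Each embryo gave 277 to 476 member cells and 2385375 to 3840469 UMIs in their sum, out of 82872641 to 123737385 UMIs in all kept cells. Member cells had a median of 7320 to 8788 UMIs per embryo, against 10795 to 17077.5 in all kept cells. The library names carry 1 of 2 prefixes of unstated meaning. The first is shared by WT1, WT2, WT3 and Het4 (the WT prefix here) and the second by Het1, Het2, Het3 and the KO embryos (the KO prefix), so prefix and genotype cannot be told apart in KO vs WT. The median share of mitochondrial UMIs in member cells was 3.51% to 3.91% under the WT prefix and 4.23% to 4.61% under the KO prefix. A score for doublets (2 cells under 1 barcode), cut at the share expected from the number of barcodes, marked 1.24% of member cells and 4.80% to 8.31% of kept cells, and doublets were removed only in an alternative. Among kept barcodes, 496 occurred in more than 1 library, and 0 of them were member cells in 2 libraries.

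The member cells were GABAergic by genes that the rule did not use. At least 2 UMIs of Gad1 and Gad2, the enzymes that make GABA, were present in 81.9% to 87.7% of member cells per embryo. In cells with over 2 Neurod6 UMIs (excitatory neurons by that gene), which the rule leaves out, the share was 2.80% to 5.78%. Those cells were deeper, with median depths of 15182.5 to 20778 UMIs. Cells that met the other criteria with exactly 2 of the 5 marker genes had a share of 56.9% to 70.4%. The level of Gad2 in the summed member cells, in UMIs scaled to a common total per library (CPM) and as the median over embryos, was 473 CPM, against 10.6 CPM in the cells with over 2 Neurod6 UMIs. Slc32a1, the vesicular GABA transporter, stood at 99.0 and 2.75 CPM in the same order.

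They differed from 3 other GABAergic populations defined by their own markers, which are set beside them with no test because the rules themselves separate the cells. Isl1 Ebf1 striatal neurons (1375 cells) shared with them a high level of Meis2, a factor of LGE descendants, at 3072 CPM against 3487 CPM in members, while CGE interneurons (1606 cells) had 220 CPM and MGE interneurons (5832 cells) had 111 CPM. Foxp1, a striatal transcription factor, was at 651 CPM in members, 1633 CPM in Isl1 Ebf1 neurons and 40.7 and 61.5 CPM in the CGE and MGE cells. Drd2 was at 32.6 CPM in members, 0.717 CPM in Isl1 Ebf1 neurons and 0 CPM in CGE cells. Penk, the enkephalin precursor of indirect-pathway neurons, was at 48.9 CPM in members and 0.906 CPM in Isl1 Ebf1 neurons. The direct-pathway genes were placed the other way. Drd1 was at 4.64 CPM in members and 18.2 CPM in Isl1 Ebf1 neurons, and Tac1, the substance P precursor, at 0.627 and 85.1 CPM. The MGE genes Maf, Nxph1 and Sst were at 55.4, 21.1 and 28.5 CPM in members, against 1112, 531 and 1052 CPM in MGE cells.

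**Figure D1:**
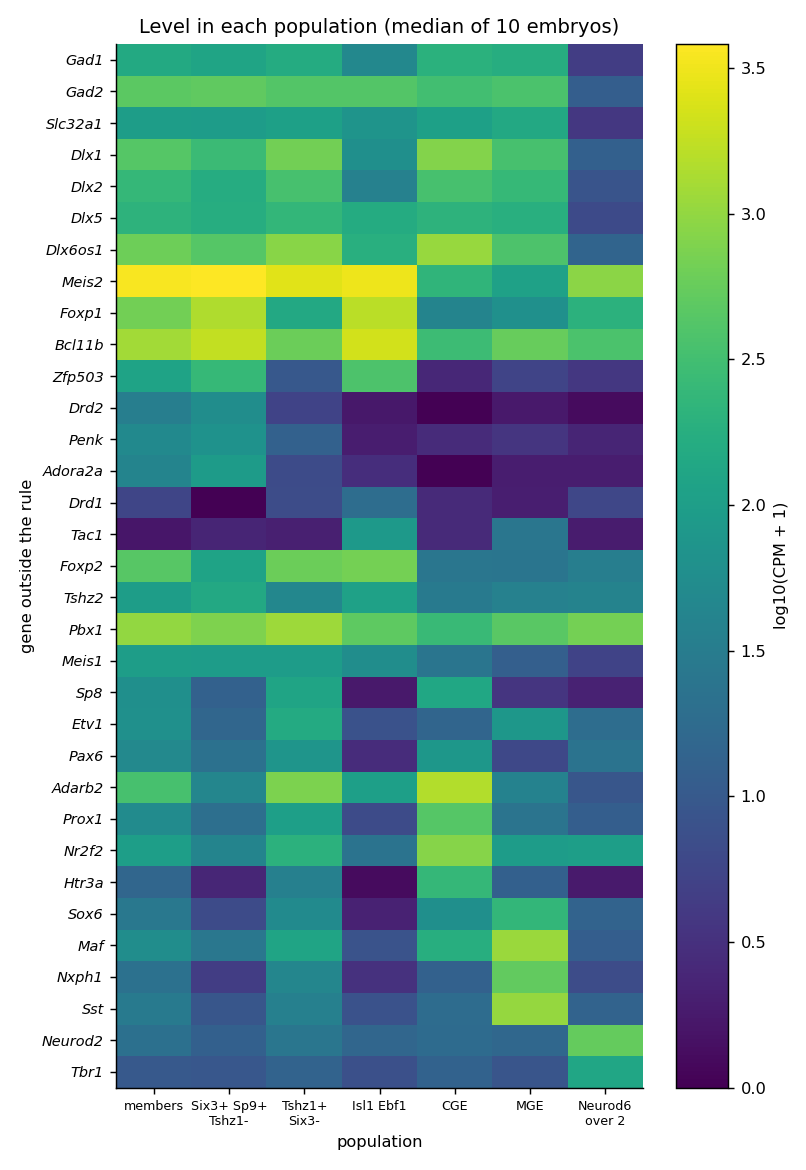
Levels of genes outside the rule (rows) in 7 populations (columns), as log10 of CPM plus 1, with CPM the median of 10 embryos. Gad2 is bright in each GABAergic population and dark in cells with over 2 Neurod6 UMIs, Meis2 is bright in members, in both of their subsets and in Isl1 Ebf1 neurons, and Drd2 and Penk are brightest in the Six3+ Sp9+ Tshz1- members.

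Some genes of immature cells were among those with the highest ratios of members to other GABAergic cells. The 10496 other cells had at least 2 Gad1 and Gad2 UMIs, at most 2 Neurod6 UMIs and fewer than 2 of the mitosis genes. Members needed no Gad1 or Gad2 UMI, and 81.9% to 87.7% of them per embryo had at least 2. Fabp7, a fatty acid binding protein of radial glia, exceeded its level in the other cells by 8.36-fold (median of the 10 embryos after adding 10 CPM). Its median in members was 447 CPM, with a range of 53.3 to 841 CPM over the embryos. Its level was 32.9 and 133 CPM in the Six3+ Sp9+ Tshz1- and Tshz1+ Six3- subsets of members defined in the next paragraphs, and 1785 CPM in the cells just outside the rule, with exactly 2 of the 5 marker genes. Other genes high by this ratio were Apoe at 4.73, Zfhx4 at 3.64, Meis2 at 3.54 and Tle4 at 3.43, with Tiam2, Mpped2, Ccnd2 and Sox9 at 2.92 to 2.72, each higher in 10 of 10 embryos. Against Isl1 Ebf1 neurons, Sox2 was higher by 18.9-fold and Ccnd2 by 13.0-fold in 10 of 10 embryos, both expressed in progenitors and in young neurons, while the hemoglobin gene Hbb-bs, at 15.7-fold by medians, was higher in 6 of 10. Mki67 and Top2a, which the rule limits, were at 2.56 and 4.80 CPM. A list of 8 progenitor genes, not picked by these ratios, summed to 962 to 1605 CPM in WT, 1347 to 2013 CPM in Het and 1059 to 1789 CPM in KO members. In the other Gad1 Gad2 cells it summed to 508 to 566 CPM in WT, 556 to 603 CPM in Het and 558 to 779 CPM in KO.

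The members were not uniform. Exactly 3 of the 5 marker genes were detected in 1764 cells, 4 in 1322 and all 5 in 536, and 2299 further cells with the other criteria met had exactly 2 and stayed just outside. Those outside had at least 2 Gad1 and Gad2 UMIs in 56.9% to 70.4% of cells per embryo, and their Meis2 level was 1036 CPM. The most frequent of the 16 combinations was Sp9 Pbx3 Tshz1 without the others, in 622 cells (17.2% of members), then all 5 genes in 536 (14.8%), Sp9 Pbx3 Tshz1 Syt6 in 451 (12.5%) and Six3 Sp9 Syt6 in 354 (9.77%). The 2 ends of this range were described apart. Members with Six3 and Sp9 but no Tshz1 UMI (Six3+ Sp9+ Tshz1-) were 792 cells, and members with Tshz1 but no Six3 UMI (Tshz1+ Six3-) were 1286 cells.

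The Six3+ Sp9+ Tshz1- members were higher in several striatal genes. Zfp503, a factor of striatal projection neurons, was at 252 CPM in them and 8.82 CPM in Tshz1+ Six3- members, Foxp1 at 1429 and 143 CPM, Drd2 at 55.5 and 4.23 CPM, and Adora2a, the adenosine receptor of indirect-pathway neurons, at 90.1 and 5.59 CPM. The summed shared striatal list had WT medians of 7998 CPM in them, 4176 CPM in the Tshz1+ Six3- members and 2690 CPM in the other Gad1 Gad2 neurons. Meis2 was at 2637 CPM in the Tshz1+ Six3- members and 3827 CPM at the other end. Arpp21 was at 62.8 CPM against 58.0 CPM in the same order, and Pde10a at 60.9 CPM against 75.9 CPM. The Tshz1+ Six3- members were higher in several genes of dorsal LGE, CGE and MGE neurons. Sp8 was at 124 CPM in them and 11.9 CPM in the Six3+ Sp9+ Tshz1- members, Etv1 at 153 and 14.3 CPM, Adarb2 at 746 and 43.0 CPM, and Foxp2, which intercalated cells and striatal neurons both express, at 597 and 118 CPM. Prox1, Nr2f2 and Htr3a, other CGE genes, were at 104, 199 and 35.4 CPM in the Tshz1+ Six3- members and at 439, 857 and 245 CPM in CGE cells. The MGE genes Maf and Nxph1 were at 121 and 42.7 CPM in the Tshz1+ Six3- members and 25.5 and 3.53 CPM at the other end. The summed MGE list had WT medians of 486 CPM in the Tshz1+ Six3- members and 142 CPM at the other end. Not every dorsal LGE gene lay that way. Tshz2 was at 43.9 CPM in the Tshz1+ Six3- members and 146 CPM at the other end, higher there in 10 of 10 embryos, and the summed dorsal LGE list had medians of 5252 and 5162 CPM in WT, 4800 and 4851 CPM in Het, and 4787 and 5581 CPM in KO in the same order. The 2 ends differ by the genes that chose them, so these levels carry no test.

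The share of member cells overlapped between the genotypes. The share of kept cells was 3.96%, 4.57% and 6.10% in WT1 to WT3, 4.74%, 5.72%, 7.23% and 4.78% in Het1 to Het4 and 5.53%, 7.75% and 5.86% in KO1 to KO3. The means were highest in KO, with WT at 4.88% ± 1.10, Het at 5.62% ± 1.17 and KO at 6.38% ± 1.20 (mean and SD, n = 3, 4 and 3). The differences of 0.743 (Het vs WT) and 1.5 percentage points (KO vs WT) did not pass the test (two-sided exact permutation p = 0.457 and 0.30, both 0.457 after Benjamini-Hochberg adjustment over 3 comparisons). The smallest p this test allows is 0.0286 for 3 against 4 embryos and 0.10 for 3 against 3, so KO vs WT could not have passed. The share was also taken among cells with at least 2 Gad1 and Gad2 UMIs, at most 2 Neurod6 UMIs and fewer than 2 mitosis genes. Of these cells, members took 20.7% ± 2.48 in WT, 22.4% ± 3.93 in Het and 26.4% ± 2.81 in KO (SD, n = 3, 4 and 3). KO and WT differed by 5.70 percentage points (exact permutation p = 0.20), with KO at 23.5% to 29.1% and WT at 19.2% to 23.6%. Because the rule counts detected genes, each cell was also thinned to 5000 UMIs, which left out 5.78% to 20.7% of kept cells per embryo. WT was then at 4.44% ± 1.01, Het at 4.72% ± 1.10 and KO at 5.20% ± 0.952 (SD, n = 3, 4 and 3; exact permutation p = 0.40, KO vs WT). Within the KO prefix, KO embryos exceeded Het1 to Het3 by 0.48 percentage points (exact permutation p = 0.60).

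**Figure D2:**
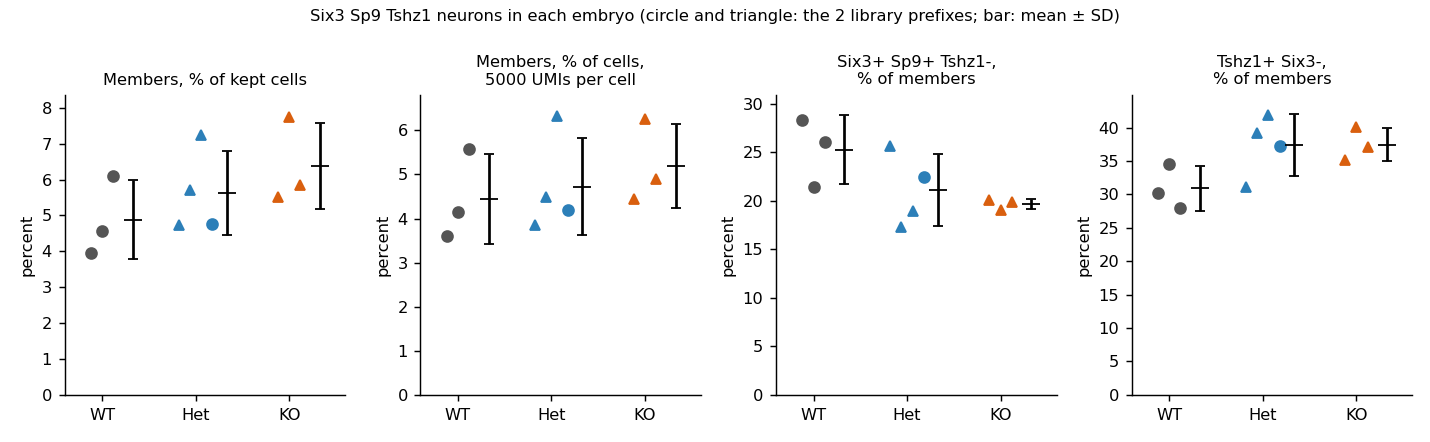
Share of member cells per embryo, in percent of kept cells, in percent of cells thinned to 5000 UMIs, and the shares of members at the Six3+ Sp9+ Tshz1- and Tshz1+ Six3- ends. Points are embryos, circles the WT prefix, triangles the KO prefix and bars the mean ± SD of each genotype, and the genotypes overlap in the first 2 panels, with shares of 3.96% to 7.75% of kept cells.

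The Six3+ Sp9+ Tshz1- cells were 28.4%, 21.4% and 26.1% of members in WT1 to WT3, 25.6%, 17.3%, 19.0% and 22.5% in Het1 to Het4, and 20.1%, 19.1% and 19.9% in KO1 to KO3. Each KO value lay below each WT value, while the Het embryos overlapped both. The Tshz1+ Six3- cells took 30.9% ± 3.36 of WT members, 37.4% ± 4.60 of Het members and 37.4% ± 2.48 of KO members (SD, n = 3, 4 and 3). These shares use genes of the rule and were not tested, so gene changes over all members may hold a change in their makeup. The levels of the rule genes in members also differed by genotype. In KO vs WT, Six3 and Syt6 were at -0.32 and -0.38 on the log2 scale. Pbx3, Tshz1 and Sp9 were at 0.28, 0.30 and 0.35. Neurod6, which the rule limits, was at -1.06. Whether these differences enter the share of members or the gene changes was not tested. In sums over cells, fewer cells with a gene and less of its RNA per cell cannot be told apart.

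Gatad2b (ENSMUSG00000042390, chr3:90293178-90363407 on the plus strand, GRCm38) was highest in WT, lower in Het and lowest in KO. Its level in the summed members, from here on in CPM normalized by the trimmed mean of M values (TMM), was 136, 141 and 145 CPM in WT1 to WT3, 112, 89.9, 115 and 102 CPM in Het1 to Het4, and 79.5, 75.5 and 83.3 CPM in KO1 to KO3. The 3 genotypes did not overlap. In edgeR's quasi-likelihood test the log2 fold change was -0.42 ± 0.08 (SE) in Het vs WT (adjusted p = 0.0312) and -0.82 ± 0.09 between KO and WT (adjusted p = 0.000184), or -0.88 with the prefix as a covariate (adjusted p = 0.029). KO vs Het, at -0.40, did not pass (adjusted p = 0.118). Het vs WT lost the call without WT1, WT2, WT3, Het2 or Het3, with an adjusted p up to 0.22. Of 15 genes of NuRD subunits, paralogs and partners tested, 3 were called higher and 1, Gatad2b itself, lower in KO vs WT. Over all genes tested, 3.92% were called higher and 3.38% lower. The median log2 fold change of the 15 genes was 0.06. Gatad2a, the paralog of Gatad2b, was at 35.8, 31.3 and 37.1 CPM in WT, 45.0, 46.9, 45.0 and 45.7 CPM in Het and 48.9, 49.0 and 51.2 CPM in KO. Each Het and KO embryo lay above each WT embryo, although 0 of the 15 genes were called higher in Het vs WT. In KO vs WT Gatad2a changed by 0.51 ± 0.10 (adjusted p = 0.00539). Hdac1, a catalytic subunit, and Cdk2ap1, a small subunit, changed by 0.55 and 1.30 (adjusted p = 0.00588 and 0.00304), whereas the remodellers Chd3 and Chd4 were both at 0.01.

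Many genes differed between KO and WT members. Of 11145 genes tested outside the rule, 814 were called (7.3%), with an adjusted p under 0.05 and a log2 fold change beyond 0.25 in either direction, 437 of them higher (3.92%) and 377 lower (3.38%) in KO, and a median log2 fold change over all genes of -0.01. The 5 largest rises among called genes with a mean of at least 20 CPM and no overlap were AY036118, Hist1h1e, Fos, Mdk and Hist1h1b. The 5 largest falls were Rarb, Caln1, Rxrg, Opcml and Npy. Without WT2, WT3, KO2 or KO3 the count fell to 458, 277, 263 or 441. With the prefix as a covariate, a fit in which Het4 alone parts prefix from genotype, 38 genes were called, 30 of them among the 814.

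Mdk, which encodes the secreted growth factor midkine, rose in Het and in KO members. It was at 94.7, 104 and 69.6 CPM in WT, 142, 160, 194 and 175 CPM in Het and 189, 310 and 270 CPM in KO. Het and KO embryos all lay above the WT embryos, Het4 among them. The log2 change in KO vs WT was 1.53 ± 0.17 (adjusted p = 0.000184), and 1.60 with the prefix as a covariate (adjusted p = 0.029). Ptn, the gene of the related factor pleiotrophin, moved the other way, with 294, 393 and 389 CPM in WT, 291, 342, 333 and 421 CPM in Het and 144, 154 and 264 CPM in KO. Only the KO embryos were low, and KO vs WT was -0.94 (adjusted p = 0.00777, and 0.056 without KO2).

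AY036118, whose reads match ribosomal RNA repeats, behaved differently from Mdk. It was at 471, 433 and 483 CPM in WT, 1581, 1683, 1608 and 388 CPM in Het and 1717, 1811 and 1664 CPM in KO. The high embryos were those of the KO prefix, and Het4 sat below every WT embryo. Between KO and WT the difference was 1.90 ± 0.34 (adjusted p = 0.00396), and -0.16 with the prefix as a covariate. Of the 79 genes called in KO vs WT and followed through the alternatives, 9 kept the call with the prefix as a covariate. Among the others, 65 were weaker and 5 changed sign. A gene given here without a value from that fit need not have kept its call.

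Called genes of striatal projection neurons fell in KO members. Of 14 genes shared by striatal neurons, 5 were called lower and 0 higher in KO vs WT, against 3.38% and 3.92% over all genes. Their median log2 fold change was -0.19. Rarb (ENSMUSG00000017491, chr14:16430839-16819156 on the minus strand), a retinoic acid receptor needed in striatal development, was at 32.2, 39.2 and 38.1 CPM in WT, 24.0, 22.0, 21.2 and 15.9 CPM in Het and 7.66, 12 and 9.72 CPM in KO. The genotypes did not overlap, and Het4 was the lowest Het embryo. The log2 fold change was -0.83 ± 0.15 in Het vs WT (adjusted p = 0.0258, up to 0.19 without WT2, WT3, Het2 or Het3) and -1.88 ± 0.18 between KO and WT (adjusted p = 0.000112), or -2.37 with the prefix as a covariate (adjusted p = 0.00443). Within the KO prefix, KO vs Het was -1.17 (adjusted p = 0.0391).

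Rxrg, which encodes a retinoid X receptor that pairs with Rarb, was at 32.6, 37.5 and 64.0 CPM in WT, 45.8, 29.3, 23.3 and 23.4 CPM in Het and 20.4, 9.92 and 16.2 CPM in KO. Each KO embryo was below each WT and Het embryo, and KO vs WT was -1.58 ± 0.30 (adjusted p = 0.00599). Arpp21, a cAMP-regulated phosphoprotein of striatal and cortical neurons, was at 87.9, 92.1 and 108 CPM in WT, 63.0, 68.3, 64.3 and 64.5 CPM in Het and 43.1, 46.6 and 56.4 CPM in KO. Het4 lay with the other Het embryos. In KO vs WT it changed by -0.98 ± 0.10 (adjusted p = 0.000184), and -1.0 with the prefix as a covariate (adjusted p = 0.029). The other 2 called genes were Pde10a, the striatal phosphodiesterase, at -0.59 (adjusted p = 0.0219) and Ppp1r1b, the gene of DARPP-32, at -2.22 (adjusted p = 0.0348) from at most 5.57 CPM in any embryo. Pde10a lost its call without WT2, WT3, KO2 or KO3 (adjusted p up to 0.137) and Ppp1r1b without WT1, WT2, WT3, KO2 or KO3 (up to 0.142). The factors that define the lineage did not pass the test, with Foxp1 at -0.37 (adjusted p = 0.148), Meis2 at -0.16 (0.0845) and Bcl11b at 0.02 (0.942).

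Of 5 indirect-pathway genes, 2 were called lower, against 3.38% over all genes, with a median of -0.76. Drd2 was at 38.6, 36.6 and 48.3 CPM in WT, 38.1, 35.4, 30.4 and 23.4 CPM in Het and 31.0, 21.1 and 22.0 CPM in KO. KO embryos lay below WT embryos, but Het overlapped both. The log2 change in KO vs WT was -0.76 ± 0.18 (adjusted p = 0.0198), and the call was lost without WT3, KO2 or KO3 (adjusted p up to 0.124). Ptprm, a receptor phosphatase, fell by 1.0 on the log2 scale (adjusted p = 0.00379). Penk at -0.93 (adjusted p = 0.0806) and Adora2a at -0.29 (0.329) did not pass. Of 3 direct-pathway genes, 0 were called, Drd1 with 0.46 (adjusted p = 0.425). Drd1 stood at no more than 6.57 CPM in any embryo.

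The striatal changes were also read at the 2 ends of the population, each in its own fit, where 324 of 7760 genes (4.18%) were called in the Six3+ Sp9+ Tshz1- members and 88 of 8963 (0.982%) in the Tshz1+ Six3- members. Members with at least 2 Gad1 and Gad2 UMIs gave 789 of 10695 (7.38%). The difference between the ends was not tested. At the Six3+ Sp9+ Tshz1- end, KO vs WT for Arpp21 was at -1.49 (adjusted p = 0.000112), Rarb at -0.98 (0.0883), Rxrg at -1.05 (0.0596) and Drd2 at -0.60 (0.0923). At the Tshz1+ Six3- end Arpp21 was at -0.53 (adjusted p = 0.405), and Rarb and Drd2 were below the count filter.

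Genes of dorsal LGE, intercalated and olfactory bulb neurons rose where they were called. Of 13 tested, 4 were called higher and 0 lower in KO vs WT, against 3.92% and 3.38% over all genes. The median was 0.28. The summed level of the list did not rise with the called genes, at 5466 to 5803 CPM in WT embryos, 4970 to 5677 CPM in Het embryos and 5295 to 5590 CPM in KO embryos, and Meis2, at -0.16, made up the larger part of it. Sp8, required in olfactory bulb interneurons, was at 39.0, 36.6 and 30.7 CPM in WT, 45.0, 61.8, 59.8 and 68.3 CPM in Het and 60.9, 94.7 and 60.9 CPM in KO. Each Het and KO embryo lay above each WT embryo, and KO vs WT was 1.05 ± 0.18 (adjusted p = 0.00276), with 0.81 at the Tshz1+ Six3- end (adjusted p = 0.0347). Vax1, a ventral forebrain factor, was at 1.16 (adjusted p = 0.0144) and at 3.06 at the Six3+ Sp9+ Tshz1- end (adjusted p = 0.00214). Its median level at that end was only 14.0 CPM, from 61 to 124 cells per embryo.

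Foxp2 (chr6:14901349-15441977 on the plus strand) was at 398, 391 and 382 CPM in WT, 455, 465, 485 and 402 CPM in Het and 503, 489 and 481 CPM in KO. Het4 sat next to the WT embryos, with which it shares the prefix. Between KO and WT the difference was 0.33 ± 0.08 (adjusted p = 0.0146) over all members and 0.11 with the prefix as a covariate. It was 1.22 at the Six3+ Sp9+ Tshz1- end (adjusted p = 5.72e-05) and -0.15 at the Tshz1+ Six3- end (adjusted p = 0.701). Tshz2, a zinc finger factor related to Tshz1, was at 90.7, 102 and 122 CPM in WT, 69.4, 74.0, 78.6 and 92.6 CPM in Het and 147, 131 and 140 CPM in KO. The KO embryos lay above all others, and Het4, which has the WT prefix, overlapped the WT embryos while the other Het embryos lay below them. In KO vs WT it changed by 0.40 ± 0.11 (adjusted p = 0.0372). Without 1 embryo, Foxp2 lost its call for WT2, WT3 or KO2 (adjusted p up to 0.079), Vax1 for the same embryos (0.0952), and Tshz2 for WT1, WT2, Het3, KO1, KO2 or KO3 (0.115).

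Called CGE genes rose as well. Of 9 tested, 4 were called higher and 0 lower in KO vs WT, against 3.92% and 3.38% over all genes. The median was 0.59. The summed level of the list ranged from 630 to 721 CPM over WT embryos, 709 to 992 CPM over Het embryos and 870 to 1135 CPM over KO embryos. WT and KO overlapped at each end of the population. The sum was 192 to 333 CPM in WT and 212 to 456 CPM in KO at the Six3+ Sp9+ Tshz1- end. The medians there were 210 and 391 CPM. At the Tshz1+ Six3- end the sum was 1344 to 1791 CPM in WT and 1555 to 2388 CPM in KO, with medians of 1605 and 2152 CPM. Whether the makeup of members enters the rise was not tested. Nr2f2, a nuclear receptor of CGE cells also called COUP-TFII, was at 84.3, 80.0 and 82.1 CPM in WT, 95.1, 103, 104 and 100 CPM in Het and 159, 116 and 174 CPM in KO. The 3 genotypes did not overlap, and KO vs WT was 0.87 ± 0.12 (adjusted p = 0.000488). Adarb2 was at 270, 273 and 307 CPM in WT, 302, 374, 295 and 394 CPM in Het and 463, 398 and 422.4 CPM in KO. KO embryos lay above all others, and KO vs WT was 0.59 ± 0.11 (adjusted p = 0.00436), and 0.88 with the prefix as a covariate (adjusted p = 0.029). Nr2f1 changed by 0.80 (adjusted p = 0.00206). Prox1, a homeobox factor of CGE neurons, changed by 0.74 ± 0.20 (adjusted p = 0.03), with an adjusted p up to 0.128 without WT1, WT2, WT3, KO2 or KO3.

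Of 9 MGE genes, 1 was called higher and 1 lower, against 3.92% higher and 3.38% lower over all genes. Sox6 was at 17.1, 26.8 and 15.7 CPM in WT, 26.6, 17.7, 21.4 and 40.8 CPM in Het and 37.9, 55.6 and 54.1 CPM in KO. KO embryos were above WT embryos and Het4 was the highest Het embryo. The log2 change in KO vs WT was 1.32 ± 0.26 (adjusted p = 0.00684, and 0.0523 without WT3), and 1.19 against the Het embryos of the KO prefix (adjusted p = 0.0234). Npy, a neuropeptide counted in this list, was at 31.4, 24.8 and 41.9 CPM in WT, 18, 46.2, 15.9 and 15.1 CPM in Het and 18.6, 12 and 6.81 CPM in KO. Het2 was the highest embryo of all. Between KO and WT the difference was -1.42 ± 0.40 (adjusted p = 0.0401), with an adjusted p up to 0.185 without WT1, WT2, WT3, KO2 or KO3.

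The GABAergic identity list held 2 called genes of 11, both higher, against 3.92% over all genes, with a median of 0.18. Dlx2, a factor of the eminences and among those called, changed by 0.65 ± 0.12 (adjusted p = 0.00597). Gad1 at -0.05 (adjusted p = 0.795) and Gad2 at 0.04 (0.776) did not pass the test.

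**Figure D3:**
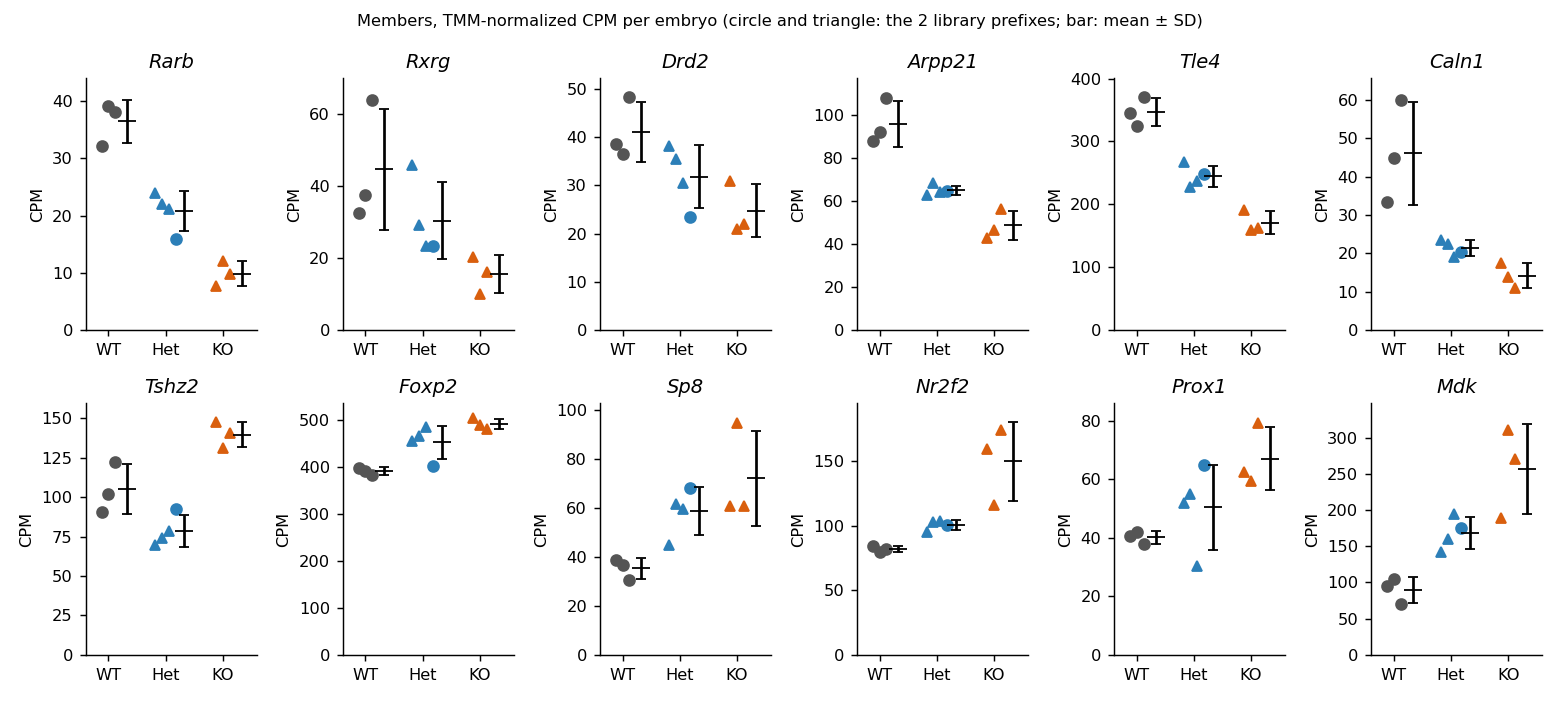
TMM-normalized CPM of 12 genes in the summed member cells of each embryo, by genotype. Circles are the WT prefix, triangles the KO prefix and bars the mean ± SD; Rarb, Tle4 and Caln1 step down from WT to Het to KO with the Het4 circle among the Het triangles for Tle4 and Caln1 and below them for Rarb, Mdk and Nr2f2 step up, and for Foxp2 the Het4 circle at 402 CPM sits next to the WT embryos.

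Markers of cells that a dissociated cortex could add were read in the same sums. The excitatory neuron list, of 11 genes with Tle4 in it, had a summed level of 488 to 537 CPM in WT members, 352.6 to 429.3 CPM in Het members and 288 to 340 CPM in KO members. Without Tle4 the groups overlapped, at 146 to 194 CPM over WT embryos, 120 to 176 CPM over Het embryos and 132 to 168 CPM over KO embryos. In the cells with over 2 Neurod6 UMIs the list with Tle4 summed to 1505 to 1593 CPM in WT and 2001 to 2116 CPM in KO. Neurod1, Slc17a7 and Slc17a6, which define excitatory cells, were at medians of 5.72, 1.13 and 3.31 CPM in members. Of 10 genes tested, 2 were called lower in KO vs WT and 0 higher, against 3.38% and 3.92% over all genes. The median was -0.34. Neurod2, a factor of excitatory neurons, was at 33, 30 and 29.6 CPM in WT, 20.6, 20.6, 10.6 and 19.1 CPM in Het and 13.1, 14.1 and 16.2 CPM in KO, a change of -1.08 ± 0.20 (adjusted p = 0.00527). Het3 was the lowest of all embryos.

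The other was Tle4 (chr19:14448150-14598051 on the minus strand), a corepressor found in deep-layer excitatory and in striatal neurons. Its level was 242 CPM in members, 119 CPM in cells with over 2 Neurod6 UMIs and 63.4 CPM in the other Gad1 Gad2 neurons. It was at 346, 324 and 370 CPM in WT, 267, 228, 237 and 248 CPM in Het and 192, 158 and 162 CPM in KO. The 3 genotypes did not overlap, and Het4 lay inside the range of the other Het embryos. The log2 fold change was -0.51 ± 0.08 in Het vs WT (adjusted p = 0.0158, up to 0.19 without WT2, WT3, Het2 or Het3) and -1.02 ± 0.09 between KO and WT (adjusted p = 4.29e-05), or -1.0 with the prefix as a covariate (adjusted p = 0.0284). Both ends of the population fell, by 1.02 (adjusted p = 5.52e-06) and 1.20 (adjusted p = 0.0122).

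The progenitor list ranged from 962 to 1605 CPM over WT embryos, 1347 to 2013 CPM over Het embryos and 1059 to 1789 CPM over KO embryos. Of its 8 genes, 2 were called higher and 1 lower in KO vs WT, against 3.92% and 3.38% over all genes. Vim was at 73.2, 126 and 96.3 CPM in WT, 173, 140, 179 and 221 CPM in Het and 154, 150 and 203 CPM in KO, and changed by 0.77 in KO vs WT (adjusted p = 0.0152, up to 0.0772 without WT1, WT3 or KO3). Nes changed by 0.75 (adjusted p = 0.0445, up to 0.209 without WT1, WT2, WT3, Het3, KO2 or KO3). Hes1 was at 32.2 CPM in WT1 and at 0.301 to 6.86 CPM in the other 9 embryos, and its change of -2.88 (adjusted p = 0.0392) was lost without WT1, Het3, KO1 or KO2. The list of non-neural cells was led by hemoglobin and choroid plexus RNA. Its sum ranged from 559 to 15870 CPM over WT embryos, 78.0 to 4331 CPM over Het embryos and 59.9 to 3112 CPM over KO embryos, with Hbb-bs at 28.8 to 3304 CPM and Ttr at up to 11930 CPM in 1 embryo. The endothelial genes Cldn5 and Pecam1 had medians of 1.19 and 1.13 CPM, and Cx3cr1 of microglia and Col1a1 and Col3a1 of fibroblasts medians of 0 CPM. Of 4 such genes tested, 1 was called lower, Pdgfra of oligodendrocyte precursors at -4.21 (adjusted p = 0.0243), with WT3 at 0.267 CPM inside the KO range and an adjusted p up to 0.127 without WT2, KO1, KO2 or KO3.

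Caln1, a neuronal calcium-binding protein, and Opcml, an adhesion protein, were among the largest falls. Caln1 was at 33.4, 44.7 and 60.0 CPM in WT, 23.6, 22.4, 19.0 and 20.3 CPM in Het and 17.5, 13.8 and 11 CPM in KO. Every Het embryo was below every WT embryo, and KO vs WT was -1.74 ± 0.20 (adjusted p = 0.000218). Opcml was at 32.6, 50.3 and 48.5 CPM in WT, 18.8, 44.8, 31.5 and 39.1 CPM in Het and 20.1, 16.8 and 10.7 CPM in KO, and changed by -1.49 ± 0.26 (adjusted p = 0.00396). Het overlapped both other genotypes. Of 32 cell adhesion genes, 7 were called lower and 0 higher, against 3.38% and 3.92% over all genes, with a median of -0.21. Lsamp, of the same family as Opcml, was at 130, 140 and 147 CPM in WT, 92.1, 118, 112 and 98.1 CPM in Het and 82.5, 60.1 and 75.5 CPM in KO. The genotypes did not overlap, and KO vs WT was -0.95 ± 0.11 (adjusted p = 0.000218), and -1.08 with the prefix as a covariate (adjusted p = 0.029). Cntn1, a contactin, changed by -1.55 (adjusted p = 0.00356) and the cadherin Cdh11 by -1.09 (0.0048). Cdh8, Pcdh17 and Nlgn2, at -1.22, -1.15 and -0.41, each lost the call without WT2, WT3 or KO2, Cdh8 also without KO1 and Nlgn2 also without WT1 or KO3 (adjusted p up to 0.143, 0.0872 and 0.119).

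Of 17 glutamate receptor genes 3 were called lower in KO vs WT and 0 higher, against 3.38% lower over all genes, with a median of -0.34. Of 13 GABA receptor genes 1, Gabrg3, was called lower, with a median of -0.62. Gria2, an AMPA receptor subunit, was at 535, 607 and 558 CPM in WT, 410, 461, 437 and 489 CPM in Het and 375, 421.6 and 461 CPM in KO. All Het and KO embryos were below the WT embryos, and KO vs WT was -0.44 (adjusted p = 0.00862). Grm5, a metabotropic receptor, was at 99.0, 93.0 and 103 CPM in WT, 77.9, 55.3, 51.3 and 53.8 CPM in Het and 69.7, 33.4 and 50.6 CPM in KO, a change of -0.96 (adjusted p = 0.00648). Grin1 at -0.94 (adjusted p = 0.024, up to 0.152 without WT3, KO1, KO2 or KO3) and Gabrg3 at -1.73 (0.0163, up to 0.0773 without WT2, WT3, KO1 or KO2) were low throughout. Of 20 neuronal maturation genes, 1 was higher and 1 lower, against 3.92% higher and 3.38% lower over all genes, with a median of 0.00. Mapt, the gene of tau, was at 656, 716 and 859 CPM in WT, 480, 516, 447 and 622 CPM in Het and 555, 435 and 434 CPM in KO, and changed by -0.65 (adjusted p = 0.00692, up to 0.0521 without WT3 or KO2). Nefm, a neurofilament gene, changed by 0.46 (adjusted p = 0.0265, up to 0.157 without WT2, WT3, KO2 or KO3).

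Of 31 guidance and migration genes, 2 were called higher and 2 lower in KO vs WT, with a median of 0.07. Over all genes, 3.92% were called higher and 3.38% lower. Nrp1, a semaphorin receptor of migrating interneurons, was at 31.8, 38.5 and 34.1 CPM in WT, 12.4, 19.1, 11.6 and 19.7 CPM in Het and 22.6, 16.2 and 24.0 CPM in KO. All Het and KO embryos lay below the WT embryos, and the Het embryos, at 11.6 to 19.7 CPM, overlapped the KO embryos. The change was -1.15 ± 0.18 in Het vs WT (adjusted p = 0.0158, up to 0.131 without WT2, WT3 or Het3), and for KO it was -0.74 (adjusted p = 0.0263, up to 0.149 without WT2, WT3 or KO2). Dcc, the netrin receptor, was at 33, 31 and 32.8 CPM in WT, 20.1, 19.5, 15.9 and 35.9 CPM in Het and 10.2, 15.3 and 14.9 CPM in KO. Het4 lay with WT. In KO vs WT it changed by -1.24 (adjusted p = 0.00816). The ephrin receptors Epha4 and Epha5 changed by 0.34 (adjusted p = 0.0441) and 0.59 (0.0305), and both lost the call without WT2, WT3 or KO3, Epha4 also without Het3 or KO2 and Epha5 also without KO1 (up to 0.166 and 0.121).

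Among the lists other than the one drawn from the study, histone and immediate early genes held the largest shares of called genes. Of 14 linker and variant histone genes, 9 were called higher and 0 lower in KO vs WT, against 3.92% and 3.38% over all genes. The median was 0.34. Hist1h1e, a linker histone, was at 169, 104 and 121 CPM in WT, 350, 385, 358 and 178 CPM in Het and 401, 467 and 447 CPM in KO. Het4 lay far below the other Het embryos and just above WT1. The log2 change in KO vs WT was 1.74 ± 0.22 (adjusted p = 0.000303), and 0.71 with the prefix as a covariate (adjusted p = 0.22). Hist1h1b was at 53.7, 37.2 and 56.3 CPM in WT, 90.4, 111, 110 and 80.2 CPM in Het and 105, 127 and 147 CPM in KO, where Het4 lay above WT and below the other Het embryos, and KO vs WT was 1.36 ± 0.16 (adjusted p = 0.000192). H3f3b, a variant histone H3 gene, was at 3421, 3181 and 3326 CPM in WT, 4428, 4198, 4506 and 3593 CPM in Het and 4821, 5120 and 5016 CPM in KO, and changed by 0.59 (adjusted p = 0.000184). H1f0 at 0.69 (adjusted p = 0.00233) kept its call with any embryo left out, while H1fx, H2afv, H2afz, H3f3a and Hist1h1c, at 0.28 to 0.71, each lost it without KO2 and all but H2afz also without WT3, with adjusted p up to 0.171. With the prefix as a covariate H3f3a and Hist1h1c changed sign, at -0.023 and -0.036, and the 9 genes had adjusted p of at least 0.0811.

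Of 11 immediate early genes, which cells switch on soon after a stimulus, 6 were called higher and 0 lower. The shares over all genes were 3.92% and 3.38%. The median of the list was 0.66, against 0.52 for Het. Fos was at 89.1, 45.7 and 38.9 CPM in WT, 102, 188, 124 and 73.2 CPM in Het and 146, 178 and 211 CPM in KO. Het4 lay inside the WT range. Between KO and WT the difference was 1.66 ± 0.29 (adjusted p = 0.00396), 0.75 with the prefix as a covariate (adjusted p = 0.613) and 0.36 against the Het embryos of the KO prefix. Jun in Het4, at 144 CPM, lay inside the WT range of 139 to 158 CPM, as did Dusp1 at 46.3 CPM against 40.8 to 52.1 CPM. Jund, at 670 CPM in Het4, lay just above the WT range of 595 to 657 CPM, while the other Het and all KO embryos had at least 824 CPM. Without WT3, the calls of Dusp1, Fosb, Ier2 and Jun were lost, those of Fosb and Jun also without KO3, and that of Ier2 also without WT2 or KO2 (adjusted p up to 0.0911). With the prefix as a covariate Jun was at -0.0071.

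The retinoid signaling list, which also holds Rarb and Rxrg, had 1 gene higher and 2 lower of 10 in KO vs WT. Its median was -0.20, and the shares over all genes were 3.92% higher and 3.38% lower. The gene that rose was Crabp2, a carrier of retinoic acid, with 2.39, 1.31 and 2.40 CPM in WT, 3.00, 9.03, 6.08 and 7.53 CPM in Het and 8.03, 38.2 and 20.1 CPM in KO. KO embryos were above WT embryos, and the change was 3.44 ± 0.53 (adjusted p = 0.00161). Of 9 neuropeptide genes, Pnoc, the nociceptin precursor, was called higher at 1.49 (adjusted p = 0.0336, up to 0.169 without WT1, WT3, KO1 or KO2) and Npy lower, with a median of -0.69.

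**Figure D4:**
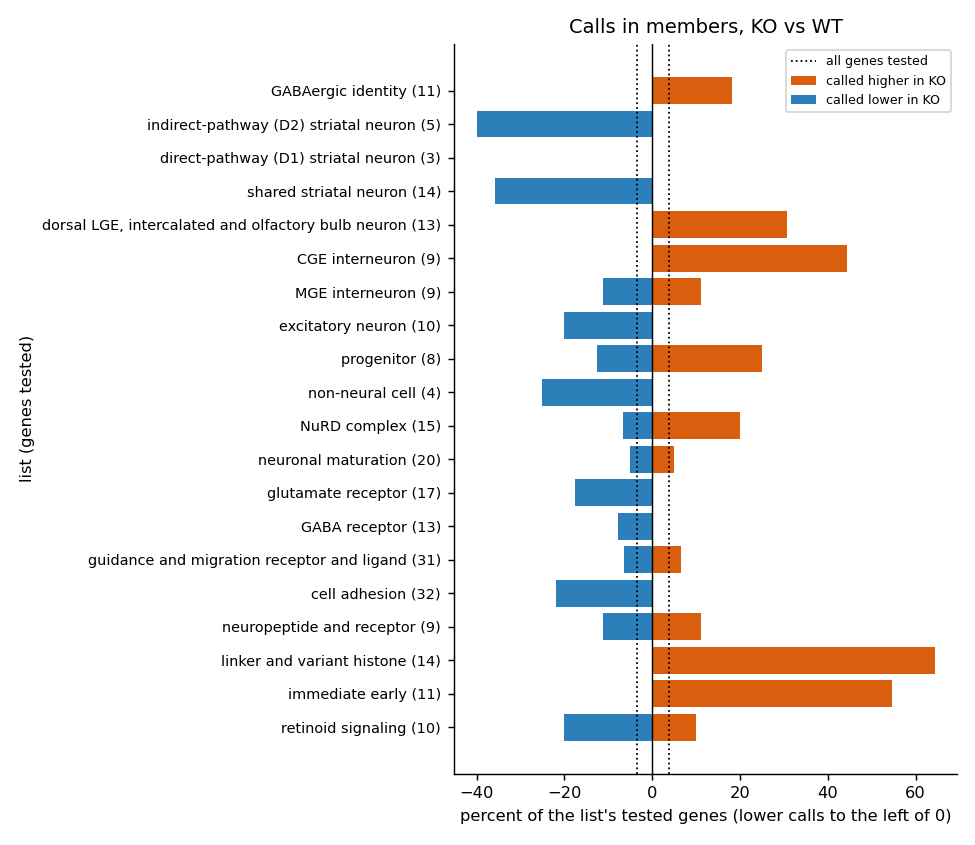
Share of each gene list, in percent of its tested genes, called higher (right of 0) or lower (left of 0) in KO vs WT members, with dotted lines at the shares over all genes, 3.92% higher and 3.38% lower. The longest bars are linker and variant histones (9 of 14 higher) and immediate early genes (6 of 11 higher), while the striatal lists have bars only to the left and the CGE and dorsal LGE lists only to the right.

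A list drawn from the text of the study, on genes it followed in these libraries, was not independent evidence, since it was chosen on the same embryos. Of 36 such genes tested, 11 were called higher and 13 lower in KO vs WT, against 3.92% and 3.38% over all genes. The median was -0.23. Besides genes given above, Hmgb2, a chromatin protein of dividing and young cells, was at 137, 123 and 124 CPM in WT, 206, 197, 257 and 178 CPM in Het and 223, 253 and 268 CPM in KO. Nfia, a nuclear factor of late neural development, was at 63.6, 82.9 and 69.3 CPM in WT, 124, 120, 134 and 102 CPM in Het and 149, 124 and 145 CPM in KO. For both genes each Het and KO embryo lay above each WT embryo, and both changed by 0.95 (adjusted p = 0.000218). Slc24a5, at 118, 131 and 126 CPM in WT, 232, 242, 214 and 114 CPM in Het and 218, 237 and 219 CPM in KO, had Het4 with WT and the high embryos under the KO prefix.

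Fewer genes differed between Het and WT members. Of 11145 genes, 49 were called (0.44%), 24 higher (0.215%) and 25 lower (0.224%), while 1641 had an unadjusted p under 0.05. The count was 3, 2, 13 and 0 without WT2, WT3, Het2 and Het3 (1229 at an unadjusted p under 0.05 without Het3), and 342 without Het4, the Het embryo with the WT prefix. With the prefix as a covariate 0 genes were called by edgeR, with 756 at an unadjusted p under 0.05. The 5 largest rises by the same rule were Hist1h1e at 1.28 (adjusted p = 0.0158), Hist1h1b at 0.99 (0.0141), Mdk at 0.92 (0.0204), Mcm6 at 0.86 (0.0141) and Vim at 0.85 (0.033). Mcm6, a replication helicase subunit, was at 25.5, 22.2 and 24.0 CPM in WT, 39.4, 40.8, 45.2 and 46.0 CPM in Het and 41.6, 54.7 and 46.7 CPM in KO. Het4 was the highest Het embryo. The 5 largest falls were Nrp1 and Caln1 at -1.15 each, Rarb at -0.83, Scube1 at -0.77 (adjusted p = 0.0192) and Syt16 at -0.74 (0.0177). Scube1, a secreted and surface protein, was at 88.7, 82.3 and 72.3 CPM in WT, 58.7, 38.3, 38.6 and 55.6 CPM in Het and 36.5, 33.7 and 35.7 CPM in KO. No Het embryo reached the WT range. None of these 10 genes kept the call in every fit with 1 embryo left out, with adjusted p up to 0.22 for Vim.

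By lists, Het vs WT had called 2 of 14 shared striatal genes (Rarb and Arpp21, both lower; median -0.26), 3 of 14 histone genes (Hist1h1b, Hist1h1e and H3f3b, all higher; median 0.30) and 0 of 11 immediate early genes. Arpp21 lost its call without WT2, WT3 or Het3, and H3f3b without any 1 of the WT embryos or of Het1 to Het3, each with an adjusted p up to 0.19. The shares over all genes in Het vs WT were 0.215% higher and 0.224% lower. Members with at least 2 Gad1 and Gad2 UMIs gave 52 calls (0.486%), and the Six3+ Sp9+ Tshz1- end gave 47 (0.606%). At the Tshz1+ Six3- end 0 were called by edgeR (0.0%), with 886 at an unadjusted p under 0.05, and DESeq2 was not run on that end.

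KO and Het members differed in 7 called genes (0.0628%), 3 higher (0.0269%) and 4 lower (0.0359%), with 1051 at an unadjusted p under 0.05. Those higher were Tshz2 at 0.82 ± 0.10 (adjusted p = 0.00863), Ptprf, a receptor phosphatase, at 0.61 ± 0.09 (0.0301), and Igsf8, an immunoglobulin family protein, at 0.50 ± 0.08 (0.0382). Igsf8 was at 43.7, 38.8 and 38.9 CPM in WT, 53.5, 48.0, 47.4 and 54.4 CPM in Het and 68.6, 73.7 and 72.6 CPM in KO, with no overlap. Those lower were Tle4 at -0.52 (adjusted p = 0.0382), Cntn1 at -1.53 (0.0382), and 2 genes below 20 CPM that were named after their values were seen, Inhba, an activin subunit, at -2.28 (0.0389) and the RNA gene 2900009J06Rik at -1.10 (0.0301). Within the KO prefix, Het4 left out together with WT, 14 genes were called (0.131%), the 7 among them, with Tshz2 at 0.90 (adjusted p = 0.000281) and Tle4 at -0.51 (0.0438). At the Six3+ Sp9+ Tshz1- end 2 genes were called (0.0258%), at the Tshz1+ Six3- end 1 (0.0112%), and in members with at least 2 Gad1 and Gad2 UMIs 13 (0.122%). The count was 0 without Het2 and 0 without Het3 in edgeR's test, with 962 and 999 genes at an unadjusted p under 0.05. It was 4 without WT1, KO1 or KO2, 3 without KO3, and 11 without WT2, Het1 or Het4.

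Whether members changed differently from the other 10496 Gad1 Gad2 neurons of the same embryos was tested as an interaction, with the embryo as a block. The other neurons needed at least 2 Gad1 and Gad2 UMIs, which members did not. Of 12615 genes, 2 passed in Het vs WT (0.0159%), and KO vs WT gave 21 (0.166%). In Het vs WT they were Nrp1, at -1.15 in members and 0.12 in the others (difference -1.28 ± 0.14, adjusted p = 0.000725), and Tubb2b, a tubulin gene, at -0.08 and 0.07 (difference -0.16 ± 0.03, adjusted p = 0.0442). The mean level of Nrp1 in the other neurons was 42.8, 46.0 and 44.9 CPM in WT, Het and KO.

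In KO vs WT, Rarb was among the genes that fell more in members, at -1.88 against -0.32 (adjusted p = 0.028). Its mean level in the other neurons was 28.2, 22.1 and 22.7 CPM in WT, Het and KO. Tle4 at -1.02 against -0.28, Dcc at -1.24 against -0.07 and Dach1, a developmental corepressor, at -1.33 against -0.08 had the same adjusted p of 0.028. Adarb2 rose in members at 0.59 and was at -0.15 in the others, with means of 251, 228 and 226 CPM there (difference 0.73 ± 0.12, adjusted p = 0.028). Fam171b, a membrane protein gene, was at 0.72 in members and -0.33 in the others (difference 1.05 ± 0.14, adjusted p = 0.0155), with 54.9, 66.9 and 61.1 CPM in WT members, 63.0, 86.3, 98.2 and 110 CPM in Het and 84.7, 125 and 91.7 CPM in KO. Pou3f1 was at -0.35 in members and 0.66 in the others (adjusted p = 0.0237). The cytoskeletal genes Actb and Tuba1a were at 0.32 and 0.14 in members and 0.49 and 0.32 in the others (adjusted p of the difference 0.0237 for both).

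Several changes of the members did not differ from those of the other neurons by this test. Gatad2b was at -0.82 in members and -0.99 in the others (difference 0.16, adjusted p = 0.729), Arpp21 at -0.98 and -1.23 (0.25, 0.845), Hist1h1e differed by 0.13 (0.827) and Mdk by 0.54 (0.327). The count of 21 was 8, 3 and 5 without WT1, KO1 and KO3, and 0 without WT2, WT3 or KO2, where 994, 897 and 798 genes had an unadjusted p under 0.05.

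**Figure D5:**
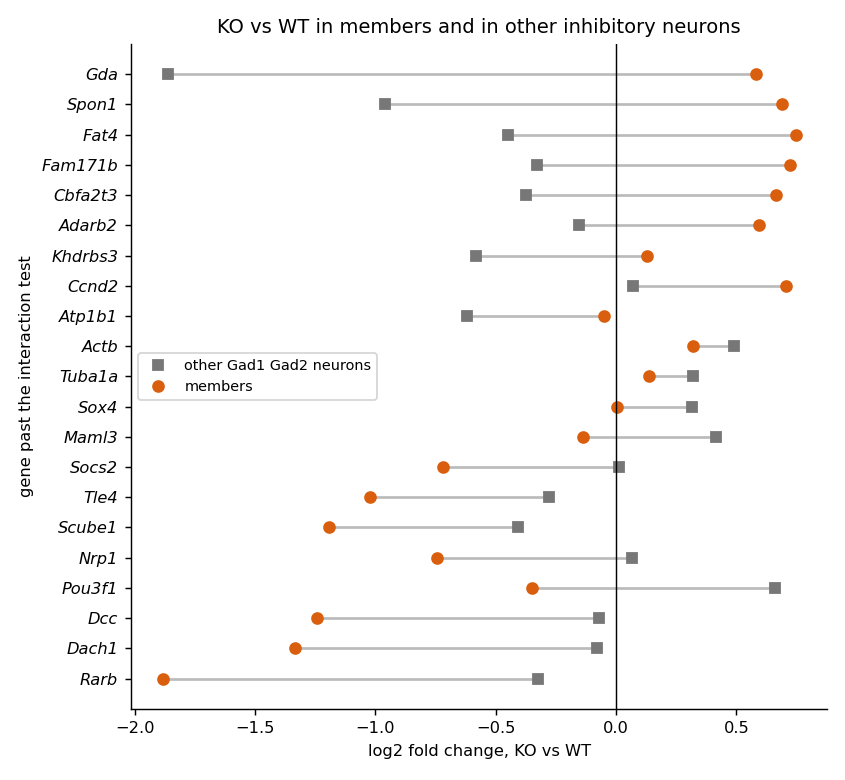
Log2 fold change in KO vs WT of the 21 genes that passed the interaction test, in members (circles) and in the other Gad1 Gad2 neurons (squares), joined by a line per gene. Rarb, Dach1, Dcc and Tle4 lie lower in members, Adarb2, Fam171b and Fat4 higher, and Actb and Tuba1a differ by less than 0.20.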

How the data were processed

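UMI count matrices of 10 libraries (10x Genomics 3' kit, version 3) were used as the authors deposited them: raw counts per gene and cell barcode, from Cell Ranger 6.0.2 per the file headers and the submitters' processing notes, on mm10; the paper's methods name an earlier release. Groups were taken from the sample labels. Each deposited matrix holds counts after the authors' cell calling; no other normalization was applied to them, and 0 columns stayed unmatched. Member cells and gene lists were chosen with earlier results of these data known.

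Counts were summed per embryo over member cells, and genes were kept by filterByExpr, normalized by TMM and tested with edgeR 4.0.16 (quasi-likelihood F-test, 1 fit over 10 embryos, Benjamini-Hochberg adjustment, R 4.3.3). The study compared cells; here embryos are the replicates, and p-values measure the spread between embryos. DESeq2 1.42.0 was an alternative. The interaction used sums per embryo and population. Shares were compared by exact permutation over all splits (Python 3.11.15, numpy 2.4.6). Doublets were scored with Scrublet in scanpy 1.11.5. Its automatic cut marked 0% to 1.64% of kept cells, so the expected share was used, 0.8% per 1000 barcodes. Scripts were tested on simulated data. Gene positions come from GENCODE vM21 (GRCm38), which held 30934 of 31053 gene identifiers. Named genes were Gatad2b, the 5 largest called rises and falls per comparison with a mean of at least 20 CPM and no overlap of the groups, the called list genes, and genes past the interaction test. Some genes are not reported here.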

Additional observations from a re-analysis of the deposited data

Results flagged for a closer look

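In the 4 Het embryos, 92 sets of gene values were searched for an embryo far from the other embryos, and 8 held one; chance gives about 5%. Het4, the only Het embryo with the WT prefix, was the far one for AY036118 at 388 CPM, H3f3a at 3356 CPM, Hist1h1e at 178 CPM and Tuba1a at 5305 CPM, below the other Het embryos in each case. Het1 was far for Cdh11 at 15.4 CPM and Grm5 at 77.9 CPM, Het2 for Npy at 46.2 CPM and Het3 for Neurod2 at 10.6 CPM.

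The change between genotypes differed between members and the other Gad1 Gad2 neurons for the genes below, by the interaction test, as log2 differences (members minus others). In Het vs WT these were Nrp1 at -1.28 and Tubb2b at -0.16. In KO vs WT they were Fam171b at 1.05, Adarb2 at 0.73, Pou3f1 at -1.01, Tuba1a at -0.19 and Actb at -0.17, the 5 with the smallest p of the 21 that passed.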

How the results depend on the processing

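In KO vs WT (814 calls), the count was 1381 with no filter on low counts, 38 with the prefix as a covariate, 429.00 with at least 4 of the 5 markers, 324 at the Six3+ Sp9+ Tshz1- end, 88 at the Tshz1+ Six3- end, and 263 to 1060 with 1 embryo left out. DESeq2 called 618, and the count stayed within 1.5 times without doublets, with a minimum of 3000 UMIs and with a limit of 5% on mitochondrial UMIs. In Het vs WT (49 calls) it was 108 by DESeq2, 568 with no filter, 281 with the replicate number as a block, 0 with the prefix as a covariate (756 at an unadjusted p under 0.05, edgeR), 0 at the Tshz1+ Six3- end, and 0 to 342 with 1 embryo left out. In KO vs Het (7 calls) it was 23 by DESeq2, 278 with no filter, 15 with the replicate block, 11 with the prefix as a covariate or only the 2 groups, 14 within the KO prefix, 2 and 1 at the Six3+ Sp9+ Tshz1- and Tshz1+ Six3- ends, 13 in members with at least 2 Gad1 and Gad2 UMIs, and 0 to 11 with 1 embryo left out. The block gave 986 in KO vs WT; the 9 pairs of embryos with the same replicate number correlated at -0.548 to 0.229 in their deviations from the group means, 2 of them above 0.1, so the numbers were not taken as a pairing. The interaction counts were 111 (Het vs WT) and 207 (KO vs WT) with no filter, 1 and 26 without doublets, and 1 to 2 and 0 to 29 with 1 embryo left out. The end-specific and Gad1 Gad2 alternatives were chosen after seeing the data, and the cause of these moves was not tested. The ends hold fewer cells than all members, and the part this plays was not tested either.

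Share differences kept their direction in each alternative, with exact permutation p above 0.05. This p was out of reach for KO vs WT, where the smallest possible is 0.10. It was also out of reach in every comparison with 1 embryo left out, which had 10 to 20 splits. With 1 embryo left out the differences ranged over 0.204 to 1.35 (Het vs WT), 0.818 to 2.12 (KO vs WT) and 0.0753 to 1.30 (KO vs Het) percentage points. Changes of sign in KO vs WT came with the prefix as a covariate for AY036118 (-0.16), H3f3a (-0.023), Hist1h1c (-0.036), Jun (-0.0071) and Slc24a5 (-0.16), and at the Tshz1+ Six3- end for Foxp2 (-0.15), Mef2c (0.11), Nefm (-0.072) and Vim (-0.052; -0.033 in Het vs WT). Of 79 named KO vs WT calls, 40 held with any embryo left out, and 9 held with the prefix as a covariate. Het4 alone parts prefix from genotype, and 277 to 476 cells per embryo limit genes under about 20 CPM.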
